A study of Mus musculus with 8 samples.

Results

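The sarcomere genes described here are 36 named genes of the contractile unit of striated muscle, chosen as a list by their function and matched by gene name. All 36 were found among the 49584 features of the count tables. They fall into 6 genes of the thick filament, 13 of the thin filament, 4 of the M-band, 11 of the Z-disc and its linkage to the membrane and intermediate filaments, and 2 chaperones of myosin. In the sarcomere, myosin thick filaments slide past actin thin filaments when calcium binds troponin and tropomyosin moves aside. The thick filaments are held at the M-band and the thin filaments at the Z-disc, and titin runs from one to the other as a molecular spring. In the heart these proteins are among the most abundant of the cardiomyocyte, and inherited variants of many of them are known to cause cardiomyopathy.

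Total RNA of crude heart mitochondria was sequenced from 4 knockout mice and 4 control mice, 1 library each. The knockouts are labelled Tefm -/-, carry loxP-flanked Tefm alleles (L/L) and express cre, per the labels from the muscle creatine kinase promoter, which drives expression in striated muscle cells and not in the other cells of the heart. The controls are labelled Tefm +/+ in the genotype field and L/L without cre in their titles. TEFM keeps the mitochondrial RNA polymerase elongating, and the study asked what it does in mitochondrial gene expression. The labels give no age, sex or strain of the animals. Messenger RNAs of sarcomere proteins are nuclear and cytosolic, so in such a preparation they are RNA that came along with the mitochondria. Less RNA of a gene per cell, fewer cells of a type and a different carry-over into the preparation cannot be told apart in these values.

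The knockout libraries held 21108165 to 25393933 counts and the control libraries 26268804 to 27403415 counts. Of these, 10331611 to 13204546 counts in knockouts and 6825329 to 7596951 in controls were of nuclear genes. Mitochondrial DNA (mtDNA) gave 59.3%, 44.2%, 38.7% and 43.1% of the counts in knockouts 1 to 4, against 72.3% to 74.0% in controls, so knockout 1 stood apart from the other knockouts. Tefm held 166, 233, 230 and 245 counts in knockouts 1 to 4 and 110, 117, 106 and 144 counts in controls 1 to 4. Its log2 fold change did not pass the threshold (0.14, standard error (SE) 0.11, adjusted p = 0.324 in edgeR), and since this count covers the whole gene and not the flanked exon alone, it does not check the labels. Values below are CPM, counts relative to the TMM-scaled library size, unless said otherwise. TMM assumes that most genes do not differ, and the median log2 fold change of all 17891 genes tested was -0.01. With library totals as the only scaling that median was 0.97, since nuclear RNA took a larger part of the knockout libraries, and every fold change below is to be read relative to this shift.

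Of the 36 genes, 31 held enough counts for edgeR's quasi-likelihood test, and 22 of these (71.0%) passed at an adjusted p of 0.05, against a background of 50.0% of all genes tested. In the knockouts 9 rose (29.0%; background 26.1%) and 13 fell (41.9%; background 23.9%), while 9 did not pass. The median log2 fold change of the 31 was -0.13. In 22 of the 31 genes the 4 knockouts did not overlap the 4 controls, a share of 71.0% against 45.4% of all genes. Changes of at least 2-fold that passed the test were few, 4 of 31 (12.9%; background 14.0%): Synpo2l, Flnc and Myom3 rose and Myot fell. In the authors' deposited table, which gives an adjusted p for 34 of the genes, 9 rose and 12 fell, beside 35.4% of all genes with an adjusted p in that table that passed, 19.0% that rose and 16.4% that fell. With library totals as the only scaling, 25 rose and 1, Myot, fell, beside a background of 81.3% of all genes called, 78.6% that rose and 2.68% that fell. The 9 genes that rose with TMM were among these 25. The split between rises and falls below is therefore one relative to the other nuclear genes.

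**Figure D1:**
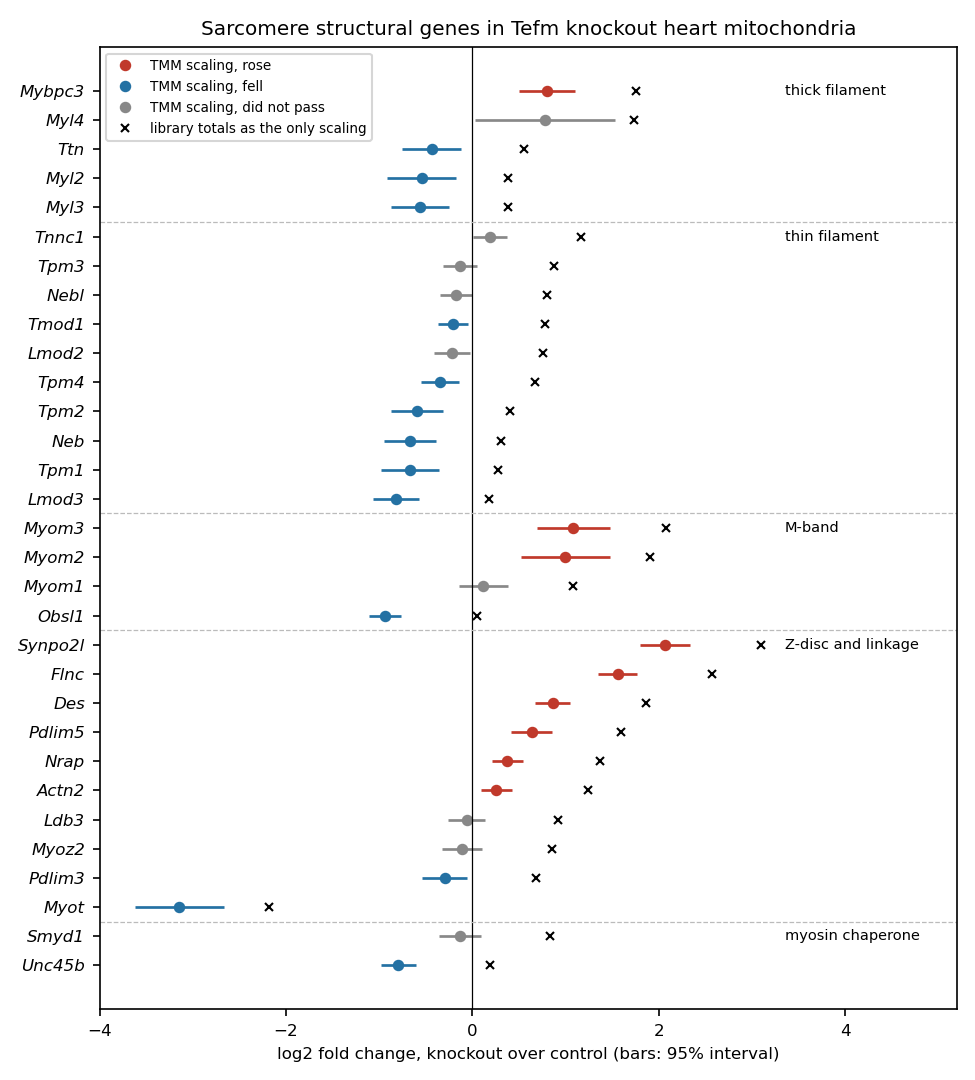
Log2 fold changes of the 31 tested sarcomere genes (x axis, knockout over control, bars are 95% intervals from edgeR's quasi-likelihood fit), grouped by role down the page; crosses give the value with library totals as the only scaling. Synpo2l at 2.07 and Flnc at 1.56 lie farthest to the right and Myot at -3.14 farthest to the left.

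The roles differed in which way their genes went. Over all genes tested 26.1% rose and 23.9% fell. Of the 10 Z-disc and linkage genes tested, 6 rose (60%) and 2 fell (20%), with a median log2 fold change of 0.32. Of the 10 thin filament genes tested, none rose and 6 fell (60%), with a median of -0.28. The thick filament had 1 rise and 3 falls among 5, the M-band 2 rises and 1 fall among 4, and of the 2 chaperones 1 fell. With library totals as the only scaling all 6 thin filament genes that fell had positive values, given beside each gene below. With that scaling 78.6% of all genes rose, and the median log2 fold change of all genes was 0.97. Differences between roles were not tested.

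Promoter sequences of the RefSeq table for GRCm38.p6 were found for 29 of the 36 genes, and the 250 bases before each start were searched on both strands for sites of muscle transcription factors. MEF2 factors bind an AT-rich site and are known as activators of muscle genes. A MEF2 site was found in 5 of the 29 genes (17.2%), against 3.42% of the 27025 genes with a window. These 5 are Synpo2l, Myom3 and Mybpc3, which rose, Ttn, which fell, and Myoz2, which did not pass. By outcome these are 3 of 8 genes that rose, 1 of 10 that fell and 1 of 9 that did not pass. A CArG box, the site of serum response factor, was found in 4 genes (Ldb3, Myl3, Myom1 and Nebl; 13.8%, against 1.62% of all genes). The letters CATTCC, the MCAT site of TEAD factors, were in 24.1% against 14.4% of all genes. The letters TATAAA were in 10.3% against 14.3%, and the E-box CANNTG in 75.9% against 69.3%. The windows with a MEF2 site are shown since they belong to the strongest rise and to the most abundant gene of the list. They lie at chr14:20668355-20668604 on the minus strand (Synpo2l, the first of 2 starts listed), chr4:135759465-135759714 on the plus strand (Myom3), chr2:91117894-91118143 on the plus strand (Mybpc3), chr2:76982548-76982797 on the minus strand (Ttn) and chr3:123034988-123035237 on the minus strand (Myoz2). Each is given from 5′ to 3′ and ends at the base before the start, and capitals mark the MEF2 match.
Synpo2l: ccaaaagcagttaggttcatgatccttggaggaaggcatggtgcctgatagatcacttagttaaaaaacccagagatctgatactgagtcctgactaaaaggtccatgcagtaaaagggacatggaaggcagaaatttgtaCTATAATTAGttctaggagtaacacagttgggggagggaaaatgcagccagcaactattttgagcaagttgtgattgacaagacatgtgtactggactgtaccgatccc
Myom3: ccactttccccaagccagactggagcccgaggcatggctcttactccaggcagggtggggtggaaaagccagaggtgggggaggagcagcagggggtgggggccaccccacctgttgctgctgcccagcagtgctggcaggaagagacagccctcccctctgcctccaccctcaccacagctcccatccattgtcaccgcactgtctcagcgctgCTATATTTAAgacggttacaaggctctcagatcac
Mybpc3: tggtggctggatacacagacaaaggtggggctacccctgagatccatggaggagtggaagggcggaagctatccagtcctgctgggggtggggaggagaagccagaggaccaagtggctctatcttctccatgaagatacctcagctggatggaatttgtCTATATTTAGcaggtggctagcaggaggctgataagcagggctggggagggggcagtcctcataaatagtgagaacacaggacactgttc
Ttn: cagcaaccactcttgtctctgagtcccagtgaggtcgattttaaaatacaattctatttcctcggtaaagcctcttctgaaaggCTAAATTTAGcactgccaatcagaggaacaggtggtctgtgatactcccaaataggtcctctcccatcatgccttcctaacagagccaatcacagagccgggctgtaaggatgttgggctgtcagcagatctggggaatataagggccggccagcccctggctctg
Myoz2: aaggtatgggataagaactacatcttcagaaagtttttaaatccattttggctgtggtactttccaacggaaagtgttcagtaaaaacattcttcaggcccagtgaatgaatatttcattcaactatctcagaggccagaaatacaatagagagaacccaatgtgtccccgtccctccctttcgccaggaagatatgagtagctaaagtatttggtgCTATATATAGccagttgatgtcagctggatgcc
The first base of the match lies 109 bases before the start in Synpo2l, 35 in Myom3, 90 in Mybpc3, 166 in Ttn and 33 in Myoz2. The pattern searched allows C or T before TA at the 5′ end, and all 5 matches hold C there. The genes that carry them went in different directions, with log2 fold changes of 2.07, 1.09, 0.80, -0.43 and -0.11 in that order.

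Titin was by far the largest source of sarcomere counts, and its share was lower in every knockout than in any control. Ttn (ENSMUSG00000051747.14, chromosome 2, 76703980 to 76982547 in GRCm38, minus strand) encodes titin, which spans from Z-disc to M-band, and has 116825 exon bases in 345 exon blocks. It took 8.79% ± 0.454 of nuclear counts in knockouts and 12.0% ± 0.219 in controls (SD, n = 4 each). Of the counts of all 36 genes it took 78.3% ± 1.45 in knockouts and 85.2% ± 0.286 in controls. Ttn had 36084, 29675, 33210 and 34564 CPM in knockouts 1 to 4, against 44813, 43940, 44956 and 46710 CPM in controls 1 to 4. All knockouts lay below all controls, and knockout 2 was lowest. Its log2 fold change was -0.43 (SE 0.15, adjusted p = 0.0242), and with any 1 control or with knockout 4 left out the adjusted p was 0.0504 to 0.0712. With library totals it was 0.55, below the median of all genes. Of its exon bases, 453 overlap the opposite-strand gene Gm13938, a small part of its length.

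The other thick filament genes went both ways. Mybpc3 encodes cardiac myosin-binding protein C, which ties myosin heads to the filament and is a main disease gene of hypertrophic cardiomyopathy. It had 2395, 1371, 1791 and 1798 CPM in knockouts 1 to 4, against 1126, 1044, 1000 and 1047 CPM in controls 1 to 4. Every knockout was above every control, with knockout 1 highest, and the log2 fold change was 0.80 (SE 0.14, adjusted p = 0.000276). Myl3, the ventricular essential light chain, had 717, 380, 507 and 520 CPM in knockouts 1 to 4 and 778, 776, 801 and 787 CPM in controls 1 to 4. The controls were nearly equal while knockout 1 lay close to them and knockout 2 far below; the gene fell (-0.56, SE 0.14, adjusted p = 0.00504; 0.38 with library totals). Myl2, the ventricular regulatory light chain, had 685, 327, 404 and 398 CPM in knockouts 1 to 4 and 670, 655, 659 and 661 CPM in controls 1 to 4. Knockout 1 was above all controls and the other 3 knockouts were well below them. Myl2 passed as a fall (-0.54, SE 0.17, adjusted p = 0.0175; 0.38 with library totals), and its value was -0.82 without knockout 1. The call was lost without knockout 3 (adjusted p = 0.0539), without knockout 4 (0.0535) and in DESeq2 (0.0935).

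The light chain of the atrium and of the embryonic heart, Myl4, was near the limit of detection. It held 18, 16, 21 and 11 counts in knockouts 1 to 4 and 5, 5, 4 and 9 counts in controls 1 to 4, and its log2 fold change did not pass (0.78, SE 0.35, adjusted p = 0.0781). It passed when control 4 or knockout 4 was left out. Within a library, the log2 ratio of Myl4 to Myl3 counts was higher by 1.34 in knockouts than in controls (SE 0.28, two-sided exact permutation test over 70 relabelings, p = 0.0286, the smallest possible; 0.0531 after adjustment over 13 ratios). The ratio of Myl4 to Myl2 was also higher by 1.34 (SE 0.27). These sizes depend on the 0.5 added to the few Myl4 counts, and with 5 added both were 0.87, with an adjusted exact permutation p of 0.0413 for each. In each setting all ratios at the smallest possible p share 1 adjusted p. It is set by how many of the 13 ratios reach that p, not by the size of a difference. Mybphl, an atrial relative of myosin-binding protein C, had 2 counts in all knockouts together and 3 in controls. Among 10 marker genes of atrial cardiomyocytes 7 were tested, of which 3 rose (42.9%; background 26.1%) and 3 fell (42.9%; background 23.9%). With library totals 4 rose and 1 fell. Nppa, natriuretic peptide A, rose by a log2 fold change of 5.54. Bmp10 rose by 8.53, with 821 counts in knockouts and 1 in controls, and Gja5 by 0.48. Stard10 (-2.29), Tbx5 (-0.83) and Kcna5 (-0.60) fell, at -1.29, 0.15 and 0.39 in that order with library totals. Myl7, the other atrial light chain, had 6 counts in knockouts and 2 in controls, and Sln, sarcolipin, 1 and 0. The summed level of these markers, nearly all Nppa, was 943 to 2164 CPM in knockouts and 66.1 to 88.2 CPM in controls; its part in the Myl4 values was not tested.

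**Figure D2:**
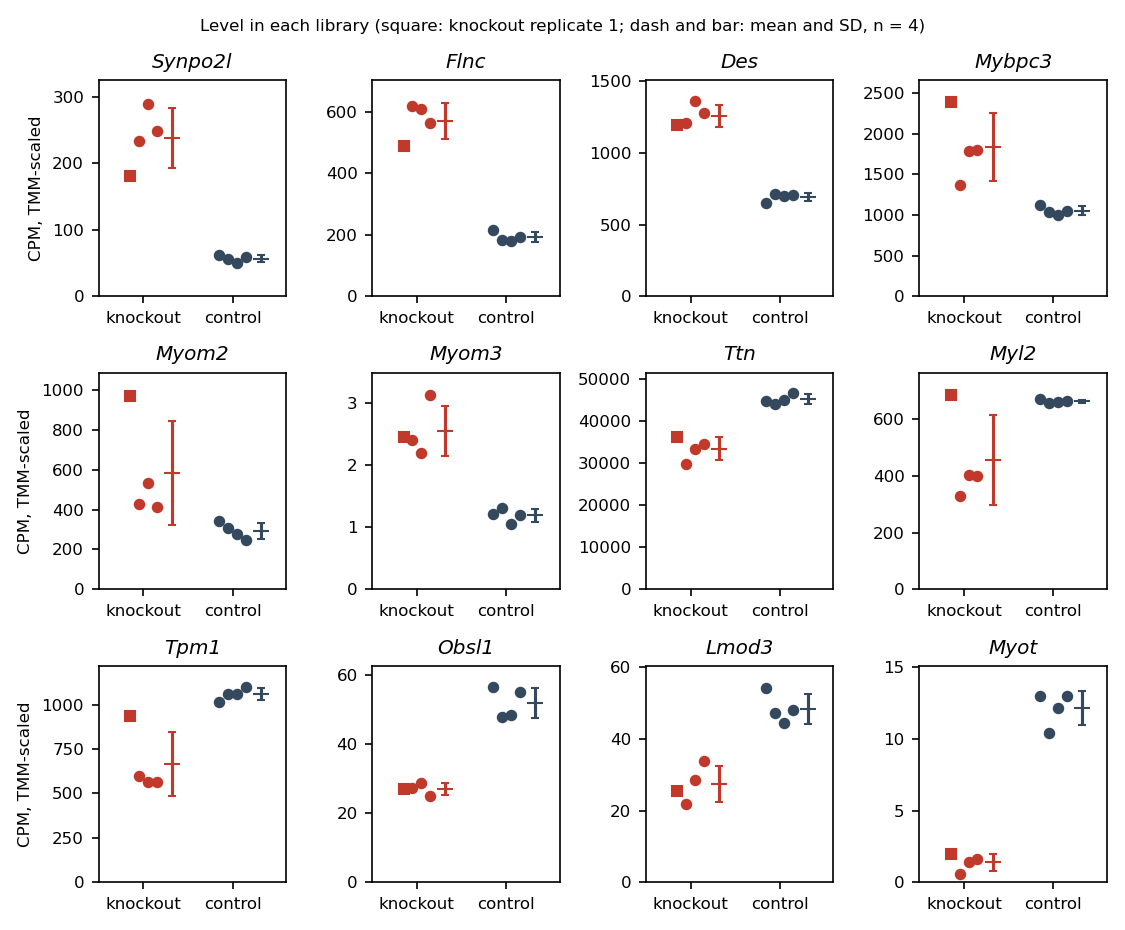
CPM (y axes, linear from 0) of 12 sarcomere genes in each library, knockouts left of controls. Each point is a library, the square is knockout 1, and the dash and bar give the mean and SD of 4 libraries. Every gene shown except Myl2 separates fully by group, as do 45.4% of all genes tested, while Myl2 of knockout 1 (685 CPM) lies above the controls.

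None of the 10 thin filament genes of the list that were tested rose, and the heart's main tropomyosin was among those that fell. Acta1, an actin of the sarcomere outside the list, rose (2.42). Tpm1 encodes alpha-tropomyosin, which blocks the myosin sites of actin at rest. It had 934, 600, 564 and 564 CPM in knockouts 1 to 4, against 1017, 1059, 1062 and 1096 CPM in controls 1 to 4. Knockout 1 stood near the controls and the other 3 lay far below, and the log2 fold change was -0.67 (SE 0.14, adjusted p = 0.0015; 0.27 with library totals). Its share of the sarcomere counts other than Ttn was 7.12% ± 1.02 in knockouts and 13.5% ± 0.50 in controls (SD, n = 4 each). Tpm2, beta-tropomyosin of slow and smooth muscle, had 3.01 to 3.61 CPM in knockouts and 4.16 to 5.48 CPM in controls and fell (-0.60, SE 0.13; 0.40 with library totals). Tpm4, a tropomyosin of non-muscle cells as well, had 28.1 to 39.4 CPM in knockouts and 41.0 to 46.4 CPM in controls and fell (-0.35, SE 0.10; 0.67 with library totals). Tpm3, with 18.2 to 23.0 CPM in knockouts and 21.0 to 23.4 CPM in controls, did not pass (-0.13, SE 0.08; 0.87 with library totals). Its copy Tpm3-rs7 held 2344 counts over the 8 libraries, so reads may be split between them. The log2 ratios of Tpm2, Tpm3 and Tpm4 to Tpm1 overlapped between groups, with differences of 0.11, 0.56 and 0.35. For Tpm3 and Tpm4 the overlap came from knockout 1 alone, and without it the differences were 0.80 and 0.61 (adjusted exact permutation p = 0.0743 for each). For Tpm2 the difference was 0.29 without knockout 1 and -0.020 without knockout 3.

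Tpm2 and Tpm4 are also genes of smooth muscle and stroma. Among 12 markers of smooth muscle and pericytes 1 rose and 5 fell (median log2 fold change -0.19; 2 rose without control 3, knockout 1 or knockout 2), and their summed level was 644 to 703 CPM in knockouts and 857 to 879 CPM in controls. Acta2, smooth muscle actin, fell (-1.07; -0.11 with library totals), as did Smtn, Notch3, Kcnj8 and Abcc9. Cspg4 rose (0.40), and Myh11, Tagln, Cnn1, Mylk, Rgs5 and Pdgfrb did not pass. Among 11 fibroblast markers 4 rose and 2 fell, and without knockout 1 8 rose and 2 fell (median 0.27 over all libraries; summed level 405 to 652 CPM in knockouts and 487 to 515 CPM in controls). Of 10 endothelial markers 1 rose and 3 fell (2 rose without control 3, knockout 1 or knockout 4), with a summed level of 490 to 544 CPM in knockouts and 521 to 553 CPM in controls. Of 12 markers of macrophages and leukocytes 4 fell and none rose, with 97.3 to 143 CPM in knockouts and 132 to 185 CPM in controls. Over all genes tested 26.1% rose and 23.9% fell with TMM, and 78.6% rose and 2.68% fell with library totals. With library totals 9 smooth muscle, 9 fibroblast, 10 endothelial and 9 leukocyte markers rose and 1 smooth muscle marker fell. None of these markers was at 0 in all libraries, and the part of such cells in the tropomyosin values was not tested.

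The genes that set thin filament length fell in part. Leiomodins start actin filaments at their pointed end, and Lmod3 is the form best known from skeletal muscle. Lmod3 (ENSMUSG00000044086.8, chromosome 6, 97238534 to 97252759 in GRCm38) had 25.4, 21.7, 28.5 and 33.8 CPM in knockouts 1 to 4, against 54.2, 47.1, 44.3 and 48.0 CPM in controls 1 to 4. All knockouts lay below all controls, and it fell by 0.82 on the log2 scale (SE 0.12, adjusted p = 4.79e-05; 0.18 with library totals). The cardiac form Lmod2 had 126 to 170 CPM in knockouts and 174 to 181 CPM in controls and did not pass (-0.22, SE 0.09, adjusted p = 0.0535; 0.76 with library totals). The log2 ratio of Lmod3 to Lmod2 was lower in every knockout than in every control, by 0.61 (log2 difference -0.61, SE 0.13, exact permutation p = 0.0286; 0.0531 adjusted). Tmod1, tropomodulin, which caps the pointed end, had 96.0 to 112 CPM in knockouts and 114 to 127 CPM in controls. It passed as a fall (-0.21, SE 0.07, adjusted p = 0.0329; 0.78 with library totals), but not with 5 of the 8 libraries left out in turn (controls 1, 3 and 4, knockouts 2 and 3; adjusted p = 0.072 to 0.087) or without the filter on low counts (0.168). Of its exon bases 1287 overlap Tstd2 on the opposite strand, whose reads cannot be told apart here.

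Nebulin is the giant protein that runs along the thin filament of skeletal muscle, and nebulette, Nebl, is its short cardiac relative. Neb had 5.93, 5.61, 4.18 and 5.77 CPM in knockouts 1 to 4, against 7.32, 8.96, 9.52 and 8.27 CPM in controls 1 to 4. It fell (-0.67, SE 0.13, adjusted p = 0.000628; 0.31 with library totals), with no overlap between groups. Nebl had 178 to 219 CPM in knockouts and 209 to 228 CPM in controls and did not pass (-0.18, SE 0.08, adjusted p = 0.0829; 0.81 with library totals). The log2 ratio of Neb to Nebl differed by -0.49 between knockouts and controls (SE 0.15, exact permutation p = 0.0286; 0.0531 adjusted).

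Of the troponins in the list, the cardiac calcium sensor Tnnc1 was the abundant one, with 307, 235, 269 and 277 CPM in knockouts 1 to 4 and 242, 244, 230 and 238 CPM in controls 1 to 4. The groups overlapped through knockout 2, and the change did not pass (0.19, SE 0.09, adjusted p = 0.0807), though it passed without knockout 2 and without the filter on low counts. The troponins of fast skeletal muscle were at or near 0. Tnni2 (fast troponin I; chromosome 7, 142441808 to 142444410) held 0, 0, 1 and 0 counts in knockouts 1 to 4 and 7, 6, 7 and 14 counts in controls 1 to 4, a ratio of 0.0176 on the scaled library sizes (95% interval 0.000434 to 0.105, for counting error only). With the filter on low counts removed it passed as a fall (adjusted p = 1.35e-06 in edgeR, 1.61e-05 in DESeq2). Tnnt3 (fast troponin T), which lies 54425 bases from Tnni2 on the same strand, held 17 counts in knockouts and 12 in controls (ratio 0.849, interval 0.382 to 1.95). Tnnc2 (fast troponin C) held 1 count in knockouts and 6 in controls, all 6 in control 3, and shares 592 exon bases with the opposite-strand gene Ube2c.

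**Figure D3:**
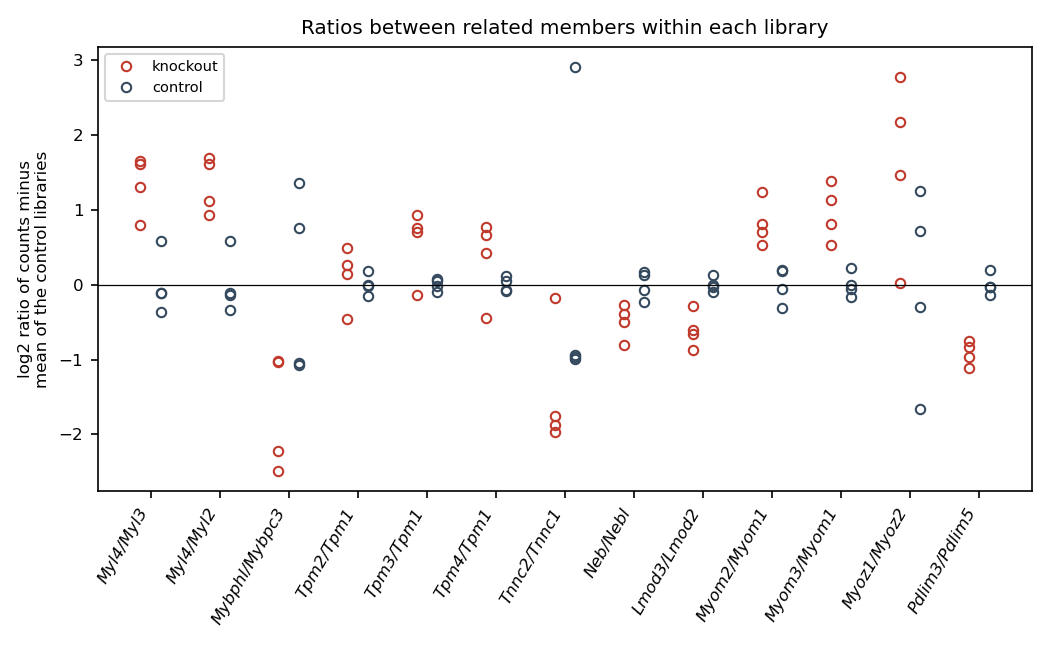
Log2 ratio of the counts of 13 pairs of related sarcomere genes in each library, minus the mean of the controls (y axis); each circle is a library, knockouts left of controls. The groups do not overlap in 7 of the 13 pairs, with mean differences from 1.34 for Myl4 over Myl3 to -0.92 for Pdlim3 over Pdlim5. The pairs were chosen with results known, and no share over other pairs was taken. Of single genes tested, 45.4% do not overlap in CPM.

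At the M-band, which links neighbouring thick filaments, the myomesins other than Myom1 rose. Myom2, the form of fast fibres and of the adult heart, had 967, 427, 531 and 415 CPM in knockouts 1 to 4, against 342, 309, 276 and 246 CPM in controls 1 to 4. All knockouts were above all controls, but knockout 1 stood far above the rest. Its log2 fold change was 1.0 (SE 0.22, adjusted p = 0.0019) and 0.64 without knockout 1. Myom3, the form of slow fibres, is a low-count gene and had 2.45, 2.40, 2.19 and 3.12 CPM in knockouts 1 to 4, against 1.21, 1.31, 1.05 and 1.20 CPM in controls 1 to 4. It rose by a log2 fold change of 1.09 (SE 0.18, adjusted p = 0.000227) with no overlap. Myom1, present in all striated muscle, had 679, 435, 500 and 476 CPM in knockouts 1 to 4 and 492, 451, 477 and 504 CPM in controls 1 to 4 and did not pass (0.12, SE 0.12; -0.04 without knockout 1). Relative to Myom1 in the same library, the log2 ratio of Myom2 was higher in knockouts by 0.82 (SE 0.19) and that of Myom3 by 0.96 (SE 0.20). Each had an exact permutation p of 0.0286, the smallest possible, and 0.0531 adjusted, a value shared by all ratios at that floor.

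Obsl1 encodes obscurin-like 1, which ties titin and myomesin together. Obsl1 (ENSMUSG00000026211.17, chromosome 1, 75479310 to 75506452) had 27.1, 27.4, 28.8 and 24.8 CPM in knockouts 1 to 4, against 56.3, 47.9, 48.2 and 55.0 CPM in controls 1 to 4. The knockouts kept within a narrow range well below the controls, and the log2 fold change was -0.94 (SE 0.08, adjusted p = 3.71e-07; 0.05 with library totals). Obsl1 lies 110730 bases from Des, which rose, on the opposite strand.

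The Z-disc and linkage genes held the largest rises and the largest fall of the list. Their summed share of nuclear counts was 0.909%, 0.944%, 0.986% and 0.919% in knockouts 1 to 4 and 0.605%, 0.611%, 0.597% and 0.607% in controls 1 to 4. Synpo2l (ENSMUSG00000039376.13, chromosome 14, 20658946 to 20668354, minus strand) encodes CHAP, a Z-disc protein that binds alpha-actinin and actin. It had 181, 234, 290 and 249 CPM in knockouts 1 to 4, against 62.1, 55.6, 50.9 and 58.8 CPM in controls 1 to 4. The lowest knockout stood well above the highest control, a 4.20-fold difference (log2 fold change 2.07, SE 0.12, adjusted p = 1.39e-08). Flnc (ENSMUSG00000068699.12, chromosome 6, 29433256 to 29461883, plus strand) encodes filamin C, an actin crosslinker that moves to sites of sarcomere damage. It had 489, 618, 610 and 564 CPM in knockouts 1 to 4, against 216, 183, 180 and 194 CPM in controls 1 to 4. It rose by a log2 fold change of 1.56 (SE 0.10, adjusted p = 1.78e-08), and in both genes knockout 1 was the lowest knockout, unlike in most of the list.

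Desmin, the intermediate filament that ties Z-discs to each other and to mitochondria, rose less but evenly. Des (ENSMUSG00000026208.9, chromosome 1, 75360329 to 75368579) had 1191, 1209, 1361 and 1275 CPM in knockouts 1 to 4, against 651, 712, 702 and 708 CPM in controls 1 to 4 (0.86, SE 0.09, adjusted p = 1.72e-06). Pdlim5, a PDZ and LIM domain protein of the Z-disc also called ENH, had 449, 324, 348 and 325 CPM in knockouts 1 to 4, against 227, 233, 237 and 233 CPM in controls 1 to 4 (0.64, SE 0.10, adjusted p = 0.000148). Both genes separated the groups in full. Its relative Pdlim3, also called ALP, had 4.89 to 6.16 CPM in knockouts and 6.36 to 7.87 CPM in controls and passed narrowly as a fall (-0.30, SE 0.11, adjusted p = 0.040; 0.69 with library totals). That call was lost in DESeq2 (0.115), without the filter on low counts (0.133) and with controls 1, 2 and 4 and knockouts 2, 3 and 4 left out in turn (0.0559 to 0.134). The log2 ratio of Pdlim3 to Pdlim5 differed by -0.92 (SE 0.10), with every knockout below every control (exact permutation p = 0.0286; 0.0531 adjusted).

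Smaller rises were those of Nrap, which organises actin during the assembly of myofibrils and at the intercalated disc, and of Actn2, the alpha-actinin that crosslinks thin filaments at the Z-disc. Nrap had 173, 160, 177 and 167 CPM in knockouts 1 to 4, against 145, 121, 125 and 131 CPM in controls 1 to 4 (0.37, SE 0.08, adjusted p = 0.00116). Actn2 had 321, 267, 305 and 284 CPM in knockouts 1 to 4, against 240, 252, 246 and 246 CPM in controls 1 to 4 (0.26, SE 0.08, adjusted p = 0.0136). In both genes the lowest knockout lay above the highest control. Ldb3, also called cypher or ZASP, had 373 to 479 CPM in knockouts and 417 to 463 CPM in controls and did not pass (-0.06, SE 0.09; 0.91 with library totals). Myoz2, the calsarcin of heart and slow muscle, had 221 to 297 CPM in knockouts and 247 to 291 CPM in controls and did not pass either (-0.11, SE 0.10; 0.86 with library totals).

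Myot, myotilin, a Z-disc protein known mainly from skeletal muscle, showed the largest fall (ENSMUSG00000024471.12, chromosome 18, 44334074 to 44355724). It held 52, 20, 49 and 51 counts in knockouts 1 to 4 and 246, 199, 219 and 260 counts in controls 1 to 4. On the scaled library sizes these were 1.99, 0.579, 1.41 and 1.61 CPM in knockouts, against 13.0, 10.4, 12.1 and 13.0 CPM in controls. No knockout came near a control, and the log2 fold change was -3.14 (SE 0.22, adjusted p = 6.66e-08). With library totals as the only scaling it was -2.18. The calsarcin of fast muscle, Myoz1, held 2, 16, 11 and 6 counts in knockouts 1 to 4 and 3, 2, 0 and 1 counts in controls 1 to 4 and was too low to enter the test. Its ratio was 3.50 (95% interval 1.46 to 10.2, counting error only), and with no filter its adjusted p was 0.0469 in edgeR, against 0.117 in DESeq2. Myoz1 lies 2405 bases downstream of Synpo2l on the same strand, with no annotated gene between, and whether reads from Synpo2l run into it was not tested.

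Myot, Tnni2, Neb and Lmod3 are genes of skeletal muscle as well, whose markers went both ways. Of 21 markers of skeletal muscle fibres 8 were tested, of which 6 fell (75.0%; background 23.9%) and 1 rose (12.5%; background 26.1%). The median log2 fold change of the 8 was -1.31, and the other 13 were too low to test. With any 1 control or knockout 1 left out 2 rose, in DESeq2 and with no filter on low counts 3 rose, and with library totals 3 rose and 4 fell. Casq1, the calsequestrin of skeletal muscle, fell (-2.72), as did Mybpc2, fast myosin-binding protein C (-2.62), Myl1, the fast essential light chain (-2.41), and Tnnt1, slow troponin T (-1.80). All 4 stayed negative with library totals, at -1.73, -1.63, -1.42 and -0.81 in that order. Acta1, skeletal actin, which the stressed heart also expresses, rose (2.42). The summed level of the 21 markers, mostly Acta1 and Ckm, was 660 to 1187 CPM in knockouts and 565 to 633 CPM in controls. Ckm, muscle creatine kinase, was among the falls, with 38176 counts in knockouts and 35276 in controls. Its promoter drives cre in the hearts of these knockouts, so the sum does not measure skeletal muscle fibres alone. The fast myosin Myh4 and the myogenic factor Myod1 were at 0 in all libraries, and the fast myosins Myh1 and Myh2 held 4 and 3 counts in knockouts and 3 and 3 in controls. Among the untested markers, and singled out after their values were seen, the perinatal myosin Myh8 held 38 counts in knockouts and 0 in controls, and slow troponin I, Tnni1, 32 in knockouts and 3 in controls. The part of skeletal muscle RNA in the falls was not tested.

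The myosin chaperones fold and help assemble myosin heads. Unc45b had 36.9, 31.5, 33.6 and 38.3 CPM in knockouts 1 to 4, against 59.9, 54.6, 58.7 and 69.7 CPM in controls 1 to 4. It fell (-0.79, SE 0.09, adjusted p = 5.99e-06; 0.19 with library totals), without overlap between groups, and its exons overlap the opposite-strand genes Unc45bos and Slfn5os by 255 and 151 bases. Smyd1, a muscle methyltransferase that works with it, had 179 to 270 CPM in knockouts and 238 to 260 CPM in controls and did not pass (-0.13, SE 0.11; 0.83 with library totals).

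**Figure D4:**
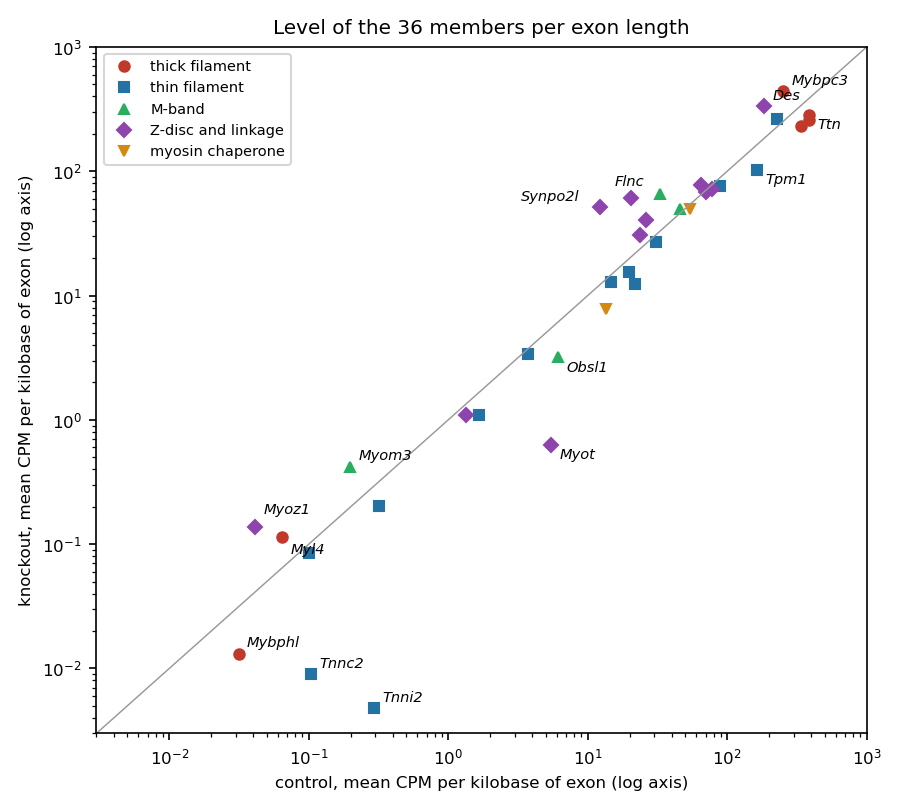
Mean CPM per kilobase of exon of each sarcomere gene in knockouts (y axis) against controls (x axis), both on log axes, with the line of equal level. Mybpc3 and Des lie above the line at 442 and 335 CPM per kb in knockouts, and Ttn, Myl3 and Myl2 lie below it.

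Per kilobase of exon, which allows genes to be compared with each other, the order of the most abundant genes differed between groups. In knockouts Mybpc3 was first with 442 ± 101 CPM per kb, followed by Des (335 ± 20.5), Ttn (286 ± 23.4), Tnnc1 (261 ± 28.7), Myl3 (260 ± 68.0) and Myl2 (233 ± 81.2; SD, n = 4). In controls Ttn came first with 386 ± 9.93 CPM per kb, followed by Myl3 (384 ± 5.55), Myl2 (339 ± 3.27), Mybpc3 (253 ± 12.6), Tnnc1 (229 ± 5.78) and Des (185 ± 7.61; SD, n = 4). Ttn and Myl3 of controls differed by less than their SD, and so did neighbours in the knockout order from Ttn to Myl2, by the larger SD of each pair. Synpo2l was number 14 in knockouts and number 23 in controls. These levels use the union of annotated exons as length, so genes with many unused exons come out too low.

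**Figure D5:**
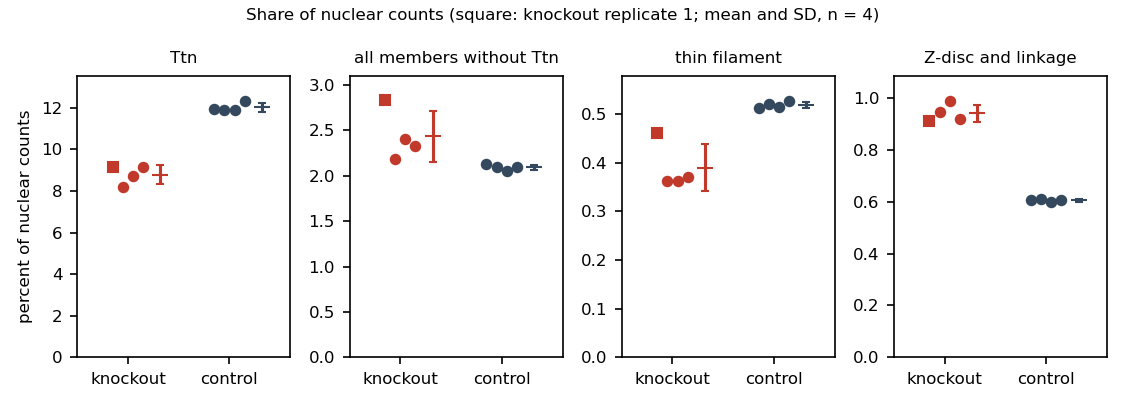
Percent of nuclear counts (y axes, linear from 0) taken by Ttn, by the 36 sarcomere genes without Ttn, by the thin filament genes and by the Z-disc and linkage genes in each library, knockouts left of controls; the square is knockout 1, the dash and bar the mean and SD. The Z-disc genes took 0.939% ± 0.034 in knockouts and 0.605% ± 0.006 in controls, while the thin filament genes took 0.390% ± 0.048 in knockouts and 0.518% ± 0.007 in controls (SD, n = 4 each).

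As a whole the 36 genes took 11.2% ± 0.674 of nuclear counts in knockouts and 14.1% ± 0.222 in controls (SD, n = 4 each), and without Ttn 2.44% ± 0.280 in knockouts and 2.09% ± 0.030 in controls. Of all counts, mtDNA included, they took 6.0% ± 0.869 in knockouts and 3.78% ± 0.158 in controls. Among sarcomere counts other than Ttn, Mybpc3 made up 19.7% ± 1.76 in knockouts and 13.4% ± 0.515 in controls, and Des 13.8% ± 2.14 in knockouts and 8.83% ± 0.459 in controls. Synpo2l made up 2.64% ± 0.697 in knockouts and 0.723% ± 0.052 in controls. Myl2, in contrast, made up 4.80% ± 0.90 in knockouts and 8.42% ± 0.062 in controls. These shares do not depend on the scaling between libraries.

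The knockouts varied more than the controls in these genes. The median SD of log2 CPM over the 31 genes was 0.19 in knockouts and 0.07 in controls, and 0.12 in knockouts without knockout 1. Knockout 1 was the highest knockout in 20 of the 31 genes, and knockout 2 the lowest in 19. Without knockout 1, 9 rose and 17 fell, among them Nebl, Lmod2, Myoz2 and Smyd1 as falls, against a background of 26.6% of genes that rose and 25.6% that fell.

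A further 43 genes of the sarcomere outside the list were counted in the same fit. Of the 38 tested, 9 rose (23.7%; background 26.1%) and 19 fell (50.0%; background 23.9%), with a median log2 fold change of -0.30. In all, 73.7% were called, against 50.0% of all genes tested. Changes of at least 2-fold that passed numbered 15 (39.5%; background 14.0%). With library totals 22 rose and 8 fell, beside 78.6% of all genes that rose and 2.68% that fell. Rises of smallest p were those of Trim54, a muscle ubiquitin ligase (1.49), and Xirp2, an actin-binding protein of the intercalated disc and of damaged Z-discs (2.25). Next were Acta1 (2.42) and Hspb7, a small heat shock protein of the heart (0.63). Falls were those of Fhl2, a LIM protein that binds titin (-1.79), Palld, palladin of the Z-disc (-1.23), Klhl41, which stabilises nebulin (-0.95; 0.05 with library totals), and Myl1 (-2.41). Of 9 ventricular markers 5 fell and none rose (median -0.75; 4 rose and 2 fell with library totals; summed level 5463 to 8027 CPM in knockouts and 11895 to 12662 CPM in controls). The falls of smallest p were those of Lbh (-1.16), Pln, phospholamban (-1.58), Kcnip2 (-1.33) and Myh6, the adult cardiac myosin heavy chain (-0.75). With library totals these were -0.20, -0.66, -0.40 and 0.22 in that order.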

How the data were processed

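Raw counts per gene were used as deposited by the authors for 8 libraries, 1 mouse each. Per the submitters' processing notes, which give no roles, the build was mm10 and the tools were DESeq2 1.14.1 in R 3.3.2, featureCounts, Bowtie2, bedtools and SAMtools 1.3.1. The authors' deposited table gives log2 fold changes with log2 standard errors, and p-values with adjusted p-values. The libraries were made with a TruSeq kit, per the labels' protocols, and no source used here says whether they keep strand, so overlapping genes on opposite strands cannot be told apart.

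Counts were tested with edgeR 4.0.16 in R 4.3.3 (two-sided quasi-likelihood F test of genotype, TMM scaling, minimum count of 10 in filterByExpr, Benjamini-Hochberg adjustment at 0.05 over 17891 genes). A standard error is the log2 fold change divided by the square root of F. The biological coefficient of variation was 11.3%. TMM factors were 1.03 to 1.61 in knockouts and 0.689 to 0.733 in controls. For the count ratios 0.5 was added to each count, and intervals of count ratios are exact at 95% and cover counting error only. Replicate libraries of 1 group differed by more than counting noise (2.56 to 140.0 in chi-square over its degrees of freedom), and each counts as 1 sample. Lengths and positions are from GENCODE M21 (GRCm38), promoters from RefSeq.

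The text names the 36 genes, Tefm, and defining markers at or near 0. From the other sarcomere, skeletal muscle, atrial and ventricular lists it names up to 4 called genes of smallest p in each direction. It also names all markers of smooth muscle and pericytes, and Ckm, Myh8 and Tnni1 of the skeletal muscle markers. Single fibroblast, endothelial and leukocyte markers are not named. These genes, the 8 lists and the 13 ratios were chosen with earlier results of these data known. Alternatives were no filter, library totals, RLE factors, DESeq2 1.42.0, nuclear genes alone, a block for the replicate number and leaving out each library. Figures were drawn with matplotlib 3.10.9.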

Additional observations from a re-analysis of the deposited data

Results flagged for a closer look

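In 7 of 102 groups of 4 libraries looked at (6.86%), 1 library lay far from the other 3 by Dixon's test, which chance alone does in about 5%. Tpm1 of knockout 1 stood at 934 CPM, with the other knockouts at 564 to 600 CPM, and with it the thin filament genes took 0.462% of nuclear counts in knockout 1, against 0.363% to 0.372% in the others. Tpm2 of knockout 3 stood at 3.61 CPM above 3.01 to 3.10 CPM. Nebl of control 2 stood at 209 CPM below 225 to 228 CPM. Ttn took 12.3% of nuclear counts in control 4, against 11.9% in each other control. The log2 ratio of Tnnc2 to Tnnc1 stood apart in knockout 2 (-12.40) and control 3 (-9.32), where the few Tnnc2 counts lie.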

How the results depend on the processing

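Library totals as the only scaling changed most. Over all genes 14066 then rose and 480 fell, of the 36 genes 25 rose and 1 fell, of the other sarcomere genes 22 rose and 8 fell, and of the marker genes 48 rose and 8 fell (10 and 28 with TMM). The log2 fold change then turned positive for 18 genes: Ttn 0.55, Myl2 0.38, Myl3 0.38, Tpm1 0.27, Tpm2 0.40, Tpm3 0.87, Tpm4 0.67, Neb 0.31, Nebl 0.81, Lmod2 0.76, Lmod3 0.18, Tmod1 0.78, Obsl1 0.054, Ldb3 0.91, Myoz2 0.86, Pdlim3 0.69, Smyd1 0.83 and Unc45b 0.19. The alternative itself omits the factor that sets nuclear RNA level. The difference in the share taken by the 36 genes was 2.22 percentage points of all counts, against -2.88 of nuclear counts. Marker genes that rose numbered 16 with no filter, where 5240 of all genes rose, and 10 with the filter, where 4669 of all genes rose. With 5 added to each count 9 of 13 ratios passed, against 0 with 0.5 added. With 0.5 added 7 of the 13 had an exact permutation p of 0.0286, the smallest possible, and 0.0531 after adjustment. An adjusted p at this floor depends on how many of the 13 ratios reach it. Mybphl to Mybpc3, with 5 Mybphl counts in all libraries together, was among those that passed with 5 added (adjusted exact permutation p = 0.0413).

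With each library left out in turn, 9 to 10 of the 36 genes rose and 10 to 17 fell, the most without knockout 1. Over all genes 4307 to 4909 rose and 3818 to 4716 fell. Marker genes gave 9 to 17 rises and the member share differed by -3.12 to -2.59 percentage points. Myom1 ranged from -0.037 (without knockout 1) to 0.20, and the log2 ratio of Tpm2 to Tpm1 ranged from -0.020 (without knockout 3) to 0.29. RLE factors and nuclear genes alone changed no call among the 31 genes. DESeq2 lost the calls of Myl2 and Pdlim3.

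Same-numbered libraries did not deviate together (correlations 0.00732, -0.0136, 0.0234 and 0.0497), so no pairing by number was seen in these values. Whether same-numbered mice were related or handled together cannot be told from this. With the replicate number as a block 9 of the 36 genes rose and 13 fell, beside 4580 of all genes that rose and 4253 that fell. Lmod2 was then called (adjusted p = 0.0444 in edgeR) and Pdlim3 was not (0.055). The exact ratio test cannot go below 0.0571 with 3 libraries against 4, or 0.125 within pairs. Depth limits Myl4, Tnni2, Tnnc2, Tnnt3, Mybphl and Myoz1, which held few counts.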
